A study of Mus musculus with 10 samples.

Results

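Astrocytes are the glial cells that clear glutamate and potassium from the space around neurons, convert glutamate to glutamine, move water at the vessel wall and couple to each other through gap junctions. The genes for these duties are active in resting tissue and are often used to mark astrocytes, whereas a further set, with the intermediate filament gene Gfap at its head, is switched on when astrocytes react to injury or inflammation. Described here are 10 homeostatic astrocyte genes, picked by gene symbol from the 78317 genes of the deposited table: Slc1a2, Slc1a3, Glul, Atp1b2, Aqp4, Gja1, Gjb6, Aldh1l1, S100b and Sox9. Each symbol matched 1 gene, and all 10 passed the filter of a mean of at least 1 TPM (a transcript abundance scaled by gene length and by the library's total), as did 15680 genes in all.

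The tissue was a 1-mm punch of medial prefrontal cortex from wild-type (WT) mice, and each library held RNA of mixed cell types. Of 10 libraries, 5 (numbers 3, 4, 5, 7 and 9) came from mice that received a control adeno-associated virus (AAV) and 5 (13, 14, 15, 17 and 18) from mice that received an AAV made to overexpress miR-130a-3p. The comparison asks how the transcripts of this tissue differ under overexpression of that microRNA. The serotype and promoter of the virus, the cells it entered, the time after injection and the age and sex of the animals are not given in the sources used here.

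The overexpressed microRNA is shown with its seed, bases 2 to 8, in capitals, because pairing of the seed with a 3′ untranslated region (UTR) is the usual way a microRNA finds its targets. Its sequence is RefSeq's (GRCm38.p6, chr2:84741116-84741137, minus strand).
mmu-miR-130a-3p: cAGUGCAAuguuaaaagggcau
In the longest annotated 3′ UTR of each of the 10 genes, matches to the seed (TTGCACT, or TGCACTA for bases 2 to 7 followed by A, sense strand, overlapping matches counted once) were found in 2, Gja1 and Slc1a2. Such a match was present in 16.0% of the 13275 tested genes with an annotated 3′ UTR. The sites are shown with the matching bases in capitals, as the letters a direct target would carry. They come from GENCODE M21 transcripts on GRCm38, a build that differs from the GRCm39 of the submitters' processing notes. The Gja1 site matches 8 bases, starts at base 1381 of a UTR of 1720 bases and lies at chr10:56390076-56390083 on the plus strand. The Slc1a2 site matches 7 bases, starts at base 4473 of a UTR of 9250 bases and lies at chr2:102786007-102786013 on the plus strand.
Gja1 site: aacttggatgtTTGCACTAagattttcttt
Slc1a2 site: gcccaggtttcTTGCACTtccttctgaaat
The other 8 genes had no such letters in the UTR searched. Neither gene with a match passed the test between the groups, as given below.

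Few of the homeostatic astrocyte genes passed the test between the groups. Of the 10 genes, 1 was lower in the miR-130a group, Atp1b2, 0 were higher and 9 did not pass (limma on log2(TPM + 1), adjusted p under 0.05 over all tested genes). At an unadjusted p under 0.05, 4 were lower, beside 22.0% of all tested genes, and 0 were higher. After adjustment 11.3% of all tested genes were lower and 2.19% higher in the same fit, so that 1 of 10 lies near the background. The log2 fold change (miR-130a minus control) was below 0 for 8 genes and above 0 for Slc1a2 and Glul, while it was below 0 for 63.6% of all tested genes. The median over the 10 was −0.27, against −0.09 over all tested genes, a gap of −0.17. Without control libraries 7 and 9, which an earlier analysis of these data found farthest from the rest, 1 gene was still lower and the gap was −0.03. The gap was −0.05 without control library 9 alone and −0.06 with library weights. Control library 9 had the lowest of these weights, 0.30, whereas control library 7, at 1.51, was not set apart by them. In bulk tissue, fewer cells of a type and less RNA per cell cannot be told apart. The labels do not say that each library came from its own animal, so a p-value reflects only how far these libraries scatter. All control numbers are below all miR-130a numbers, and an order of handling that followed them cannot be told apart from the virus.

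**Figure D1:**
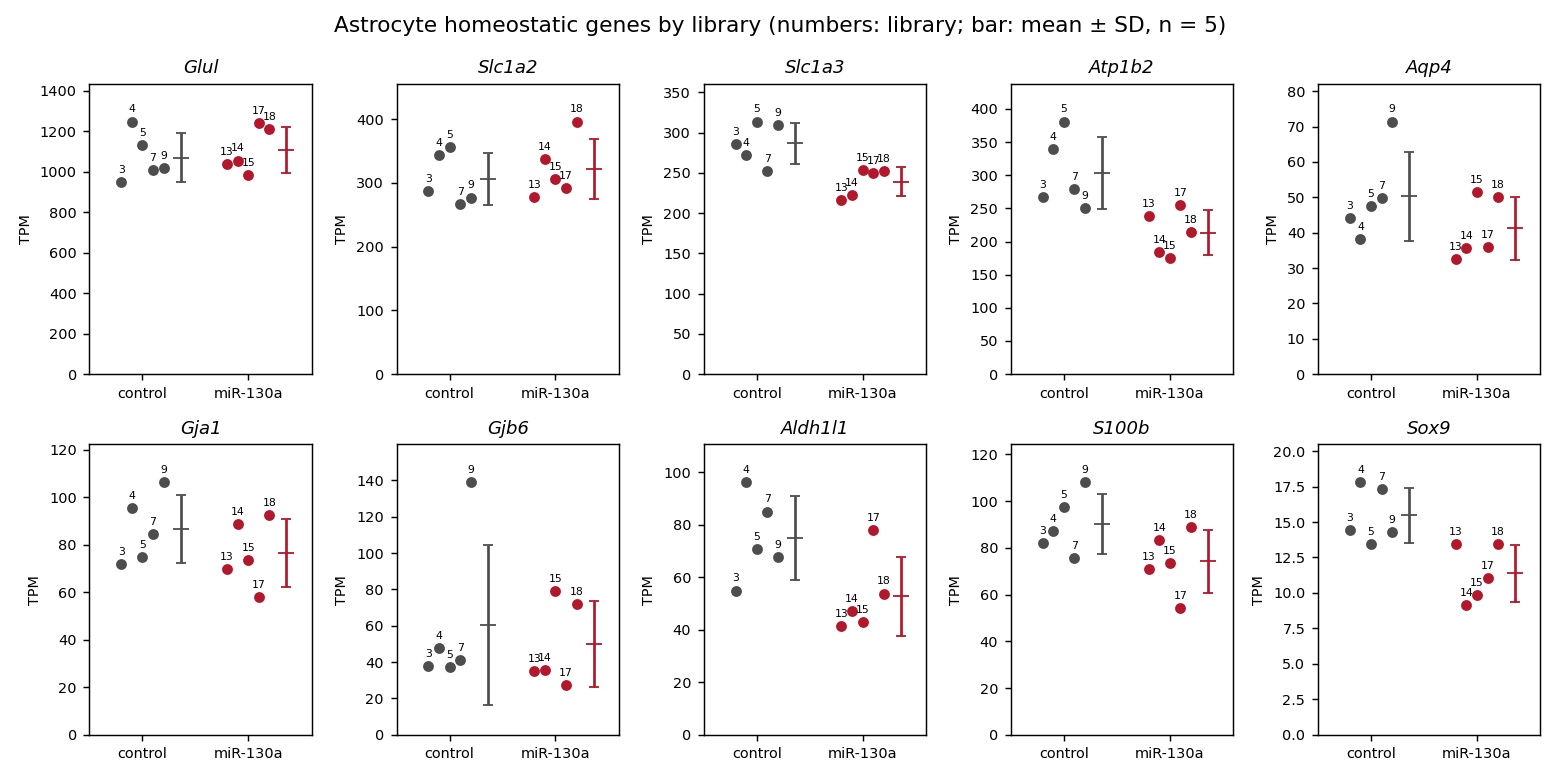
TPM of each of the 10 genes (vertical axes, from 0) in the 5 control and 5 miR-130a libraries; points are libraries with their number, and the bar beside each group is the mean with its SD. Groups overlap in every panel but Sox9, where the gap between the nearest libraries is 13.46 to 13.47 TPM, and control library 9 stands apart for Gjb6 at 138.92 TPM.

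Values touching the whole tissue moved with the group. The marker counts below stand beside 11.3% of all tested genes lower and 2.19% higher in the same fit. At an unadjusted p under 0.05, 22.0% of all tested genes were lower. Mitochondrially encoded genes took at most 16.4% of TPM in control libraries and at most 19.9% in miR-130a libraries, with lowest shares of 13.04% and 16.0%, and TPM of all other genes share the remainder. Summed TPM of 10 microglial markers lay between 1214 and 2358 in control and between 490 and 709 in miR-130a libraries (9 lower, 0 higher), and that of 10 endothelial and mural markers between 302 and 367 and between 201 and 266 (8 lower, 0 higher). Of 10 neuronal, 10 oligodendrocyte and 8 oligodendrocyte precursor markers 0 passed in either direction (limma; at an unadjusted p under 0.05, 1 neuronal marker was higher and 1 and 2 of the others lower), and the summed levels of all 3 lists overlapped between the groups. All 10 oligodendrocyte and all 8 precursor markers had a log2 fold change below 0 (medians −0.26 and −0.25). Of the neuronal markers 6 were below 0 and 4 above (median −0.03). Markers of ependymal cells, which also express Aqp4 and Sox9, were at low levels: the 8 summed to between 12.2 and 21.0 TPM in control libraries and to between 10.2 and 16.4 TPM under miR-130a. Of these, 4 (Tmem212, Ccdc153, Dnah12 and Ttr) were under the filter, each listed at 0 in 1 library or more. The other 4 were above 0 in all 10 libraries and were tested, of which 1 was lower, 0 were higher and 3 did not pass (limma). Their log2 fold changes ran from −0.79 to 0.003. The lower gene was Foxj1, the master regulator of motile cilia, which fell from 5.21 ± 0.865 to 2.70 ± 1.08 TPM (SD, n = 5 each; limma adjusted p = 0.0254). That call was lost without control library 5 or 7 or miR-130a library 13 or 14, without control libraries 7 and 9, with quantile normalization and without a filter (limma adjusted p up to 0.0801). The part of these shifts in the values below was not tested. All 20 astrocyte markers examined, the 10 genes included, passed the filter, with a summed level of 3326 to 4138 TPM in control libraries and 3303 to 4070 TPM under miR-130a. The largest parts of that sum were Glul and Aldoc, each with a log2 fold change above 0. By gene, 16 of the 20 had a log2 fold change below 0 and 4 above it (median −0.28), where 63.6% of all tested genes were below 0. Of the 10 markers beyond the genes described, 3 were lower (Mlc1, Slc25a18 and F3) and 0 higher. All 3 calls were lost with median-ratio scaling, and that of F3 also with quantile normalization (limma adjusted p up to 0.0586, 0.0723 and 0.0888 over the alternatives).

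By level, the genes fell into tiers. Glul, at a mean of 1089 TPM over all libraries, ranked 88th of the tested genes and was above the next gene in 10 of 10 libraries. Slc1a2 at 314, Slc1a3 at 263 and Atp1b2 at 258 TPM came next. Slc1a2 exceeded Slc1a3 in 9 of 10 libraries, but Slc1a3 exceeded Atp1b2 in only 5. After a clear step, S100b at 82.2, Gja1 at 81.6, Aldh1l1 at 63.9, Gjb6 at 55.2 and Aqp4 at 45.7 TPM formed the next tier, in which each gene was above its neighbour in 5 to 7 libraries. Sox9, a transcription factor, was lowest at 13.4 TPM and below Aqp4 in every library, close to the median level of all tested genes, 12.5 TPM.

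The glutamate transporters and glutamine synthetase carry the glutamate to glutamine cycle. Slc1a2 (ENSMUSG00000005089) encodes GLT-1, the main glutamate transporter of forebrain astrocytes. It was at 287.5, 344.26, 355.55, 266.94 and 276.98 TPM in control libraries 3, 4, 5, 7 and 9. In miR-130a libraries 13, 14, 15, 17 and 18 it was at 277.82, 337.1, 305.37, 292.01 and 396.16 TPM. The groups overlapped almost wholly, with miR-130a library 18 alone above all controls. Its log2 fold change was 0.07, with a 95% interval from −0.20 to 0.33 (limma adjusted p = 0.760). Its sign turned without miR-130a library 18 (−0.0087) and without control libraries 7 and 9 together (−0.038).

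Slc1a3 (ENSMUSG00000005360) encodes GLAST, the glutamate transporter that predominates in cerebellar and radial glia and is shared by cortical astrocytes. Control libraries held 285.91, 272.31, 313.85, 252.32 and 309.09 TPM, and miR-130a libraries 216.61, 222.55, 253.35, 249.57 and 252.79 TPM. All miR-130a values were below the control median, and 3 of 5 were below the lowest control, library 7. The mean was 287 ± 25.6 TPM in the control group, against 239 ± 17.9 TPM in the miR-130a group (SD, n = 5 each). With a log2 fold change of −0.26 and an interval from −0.46 to −0.06 it did not pass (limma adjusted p = 0.0792). Of the 10 genes Slc1a3 was the steadiest within groups: its pooled within-group SD, 0.12 on the log2 scale, was at the 5.69th percentile of all tested genes.

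Glul (ENSMUSG00000026473), glutamine synthetase, makes glutamine from glutamate and ammonia in astrocytes. Its mean was 1071 ± 120 TPM in the control group and 1107 ± 112 TPM in the miR-130a group (SD, n = 5 each), with ranges of 947.41 to 1248.86 and 986.3 to 1240.09 TPM. The miR-130a range lay inside that of the controls. With a log2 fold change of 0.05 Glul did not pass; the interval ran from −0.18 to 0.28 (limma adjusted p = 0.812). Without control libraries 7 and 9 the value was −0.00044. The processed pseudogene Glns-ps1 was listed at 0 in every library, and Teddm2, which overlaps Glul on the other strand in GENCODE M21, was at 1.13 to 2.97 TPM.

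Atp1b2 and Aqp4 serve ion and water balance. Atp1b2 (ENSMUSG00000041329) encodes the glial beta subunit of the sodium-potassium pump, also known as the adhesion molecule AMOG. Control libraries were at 267.32, 339.74, 381.1, 278.66 and 250.44 TPM, and miR-130a libraries at 238.08, 184.01, 175.19, 255.07 and 214.48 TPM. Of the miR-130a libraries 4 were below every control, and library 17 exceeded only control library 9. Atp1b2 fell from 303 ± 54.9 to 213 ± 34.2 TPM (SD, n = 5 each; log2 fold change −0.50, interval −0.81 to −0.19, limma adjusted p = 0.0376). The call depended on single libraries. It was lost without control library 3, 4, 5 or 7 and without miR-130a library 13, 14, 15 or 18, each in turn, with limma adjusted p-values up to 0.0963. It was also lost with median-ratio scaling (−0.39) and without a filter on low values (−0.50), while rescaling without mitochondrially encoded genes kept it (−0.44). Over all 21 alternatives the limma adjusted p lay between 0.0109 and 0.111.

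Aqp4 (ENSMUSG00000024411) encodes the water channel of astrocyte endfeet. Control libraries were at 44.11, 38.32, 47.61, 49.75 and 71.44 TPM, and miR-130a libraries at 32.52, 35.64, 51.56, 36.07 and 50.13 TPM. The miR-130a group split into 3 libraries below every control and 2, numbers 15 and 18, above 4 of the controls. The log2 fold change was −0.27 with an interval from −0.66 to 0.11 (limma adjusted p = 0.345).

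Gja1 and Gjb6 encode connexins 43 and 30, the gap junction proteins that join astrocytes into a network. Gja1 (ENSMUSG00000050953), which carries the longer of the seed matches shown above, was at 72.11, 95.34, 74.73, 84.71 and 106.32 TPM in the controls and at 69.95, 88.82, 73.47, 58.1 and 92.65 TPM in the miR-130a group. Only libraries 13 and 17 were below the lowest control. Gja1 had a log2 fold change of −0.18 with an interval from −0.50 to 0.14 (limma adjusted p = 0.464).

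Gjb6 (ENSMUSG00000040055) was the most variable of the 10 genes, with a pooled within-group SD at the 95.7th percentile of all tested genes. Control libraries 3, 4, 5 and 7 were at 38.04, 47.75, 37.1 and 40.93 TPM and control library 9 at 138.92 TPM. In miR-130a libraries 13, 14 and 17 it was at 35.38, 35.5 and 27.52 TPM, and in libraries 15 and 18 at 78.96 and 71.78 TPM. Both groups thus held libraries well above the rest. The log2 fold change was −0.19 with an interval from −1.04 to 0.66 (limma adjusted p = 0.799), and it turned to 0.16 without control library 9. An antisense transcript annotated at Gjb6 (ENSMUSG00000123781) was at 7.78 TPM in control library 9 and between 0 and 2.5 TPM elsewhere. The library kit marks strand, but how reads were counted by strand is not given in the sources used here.

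The libraries highest for Gjb6 were also those highest for Aqp4. Control library 9 ranked first, miR-130a library 15 second and miR-130a library 18 next for both genes. Control library 9 ranked first for Gja1 and S100b as well, with miR-130a library 18 the highest of its group. Neither library led for Atp1b2, where control library 9 was lowest of its group and miR-130a library 15 lowest of all. No library led its group for all 10 genes: control libraries 4, 5 and 9 led for 3, 3 and 4 genes, and miR-130a libraries 13, 15, 17 and 18 for 1, 3, 3 and 3.

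**Figure D2:**
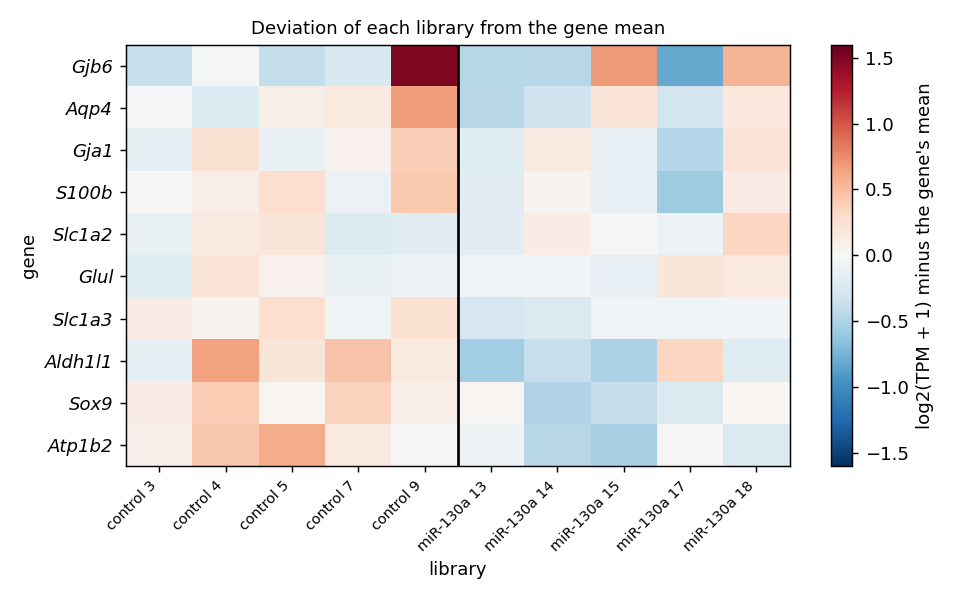
Deviation of log2(TPM + 1) from the gene's mean over all 10 libraries (colour), with libraries in columns, control left of the line and miR-130a right, and genes in rows. Control library 9 and miR-130a libraries 15 and 18 are high for Gjb6 and Aqp4, whereas the lower rows, Aldh1l1, Sox9 and Atp1b2, are mostly above their mean in control libraries and near or below it under miR-130a, apart from library 17 for Aldh1l1.

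Aldh1l1 and S100b are widely used astrocyte markers. Aldh1l1 (ENSMUSG00000030088) encodes a cytosolic folate enzyme, 10-formyltetrahydrofolate dehydrogenase. Controls held 54.98, 96.2, 70.72, 85.06 and 67.91 TPM, and miR-130a libraries 41.6, 47.27, 42.84, 78.13 and 53.83 TPM. All miR-130a libraries but number 17 were below every control. The means were 75.0 ± 16.0 and 52.7 ± 14.98 TPM (SD, n = 5 each), a log2 fold change of −0.51 with an interval from −0.92 to −0.10 that did not pass (limma adjusted p = 0.0944). It passed without miR-130a library 17 (−0.66, limma adjusted p = 0.0226), where the 21 alternatives ranged from 0.0226 to 0.241.

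S100b (ENSMUSG00000033208), a calcium-binding protein of astrocytes that oligodendrocytes also make, averaged 90.2 ± 12.8 TPM in the control group and 74.2 ± 13.3 TPM in the miR-130a group (SD, n = 5 each). The ranges, 75.79 to 108.05 and 54.21 to 88.92 TPM, overlapped, and the log2 fold change was −0.29 with an interval from −0.59 to 0.02 (limma adjusted p = 0.208). Dip2a, which overlaps S100b on the other strand in GENCODE M21, was at 12.7 to 24.5 TPM.

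Sox9 (ENSMUSG00000000567) encodes a transcription factor that specifies glia and stays on in adult astrocytes. Control values were 14.42, 17.8, 13.47, 17.32 and 14.31 TPM, and miR-130a values 13.46, 9.15, 9.85, 11.04 and 13.45 TPM. It was the 1 gene of the 10 whose groups did not overlap, by the 0.01 TPM between miR-130a library 13 and control library 5. Such separation toward lower values occurred in 9.46% of all tested genes, and toward higher values in 1.85%. The log2 fold change was −0.42 with an interval from −0.70 to −0.13 and missed the threshold (limma adjusted p = 0.0540). It passed without control library 9 (−0.44, limma adjusted p = 0.0428) and without miR-130a library 18 (−0.48, limma adjusted p = 0.0433), and over the 21 alternatives the adjusted p lay between 0.0282 and 0.249.

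**Figure D3:**
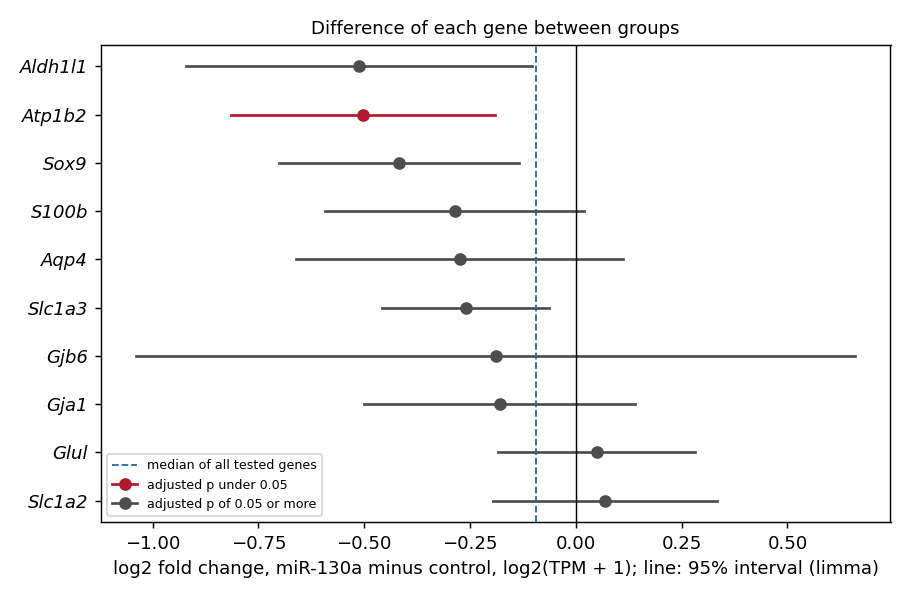
Log2 fold change of each gene (points; horizontal axis, miR-130a minus control on the log2(TPM + 1) scale) with its 95% interval from limma; the dashed line is the median of all tested genes at −0.09. The interval lies below 0 for Aldh1l1, Atp1b2, Sox9 and Slc1a3, of which Atp1b2 alone passed after adjustment.

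For 4 of the 10 genes (Atp1b2, Sox9, Slc1a3 and Aldh1l1) the unadjusted limma p was under 0.05 with a lower mean, as it was in 22.0% of all tested genes. Their fold changes were the 3 lowest of the 10 and the sixth. Relative to the median of all genes they were −0.41 for Atp1b2, −0.32 for Sox9, −0.17 for Slc1a3 and −0.42 for Aldh1l1.

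Ratios of functional partners within a library are free of the total to which TPM is scaled, and 4 pairs were compared, of which 3 are given here. The ratio of Slc1a2 to Slc1a3 was 1.01, 1.26, 1.13, 1.06 and 0.896 in control libraries 3, 4, 5, 7 and 9. In miR-130a libraries 13, 14, 15, 17 and 18 it was 1.28, 1.51, 1.21, 1.17 and 1.57. Of these, 3 were above every control, and control library 4 exceeded libraries 15 and 17. On the log2 scale the ratio was 0.09 ± 0.19 in control and 0.42 ± 0.19 in miR-130a libraries, a difference of 0.33 (SD, n = 5 each; 2-sided exact permutation p = 0.0317) that did not pass after adjustment over the 4 pairs (exact permutation, adjusted p = 0.127). The smallest p these splits allow is 0.00794.

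The other pairs given did not pass, before or after adjustment. Gja1 to Gjb6 lay between 1.90 and 2.07 in control libraries 3, 4, 5 and 7 but at 0.765 in control library 9. The miR-130a libraries spread from 0.930 in library 15 to 2.50 in library 14 (log2 difference 0.01; exact permutation, adjusted p = 0.976). Glul to Slc1a2 ranged from 3.19 to 3.77 in control and from 3.06 to 4.25 in miR-130a libraries (log2 difference −0.02; exact permutation, adjusted p = 0.976).

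**Figure D4:**
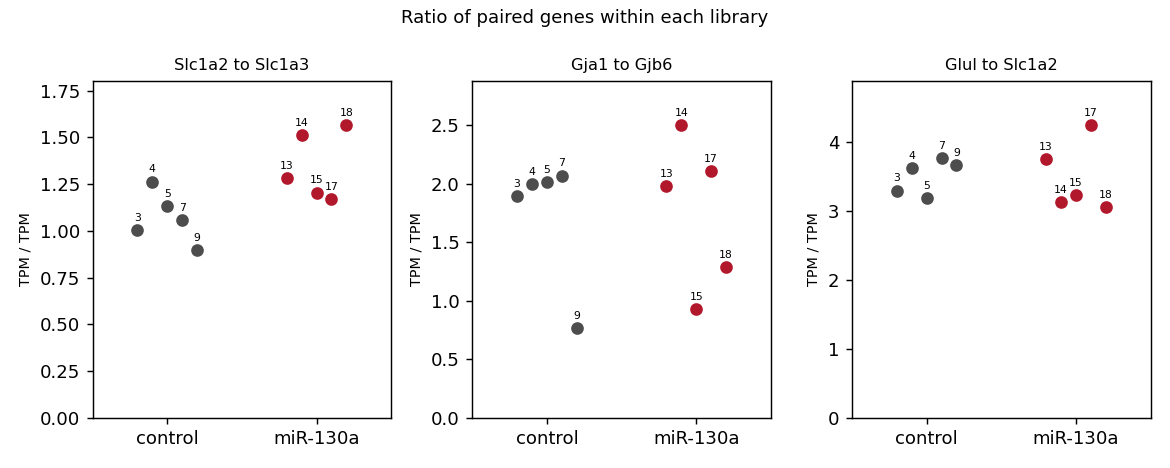
Ratio of TPM values of paired genes within each library (vertical axes, from 0), control and miR-130a, with library numbers at the points. Slc1a2 to Slc1a3 reaches 1.57 in miR-130a library 18 against at most 1.26 in control, and Gja1 to Gjb6 is 0.765 in control library 9.

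Most other genes of the same duties did not pass. The list counts that follow stand beside 11.3% of all tested genes lower and 2.19% higher in the same fit. Of 18 genes of transmitter uptake and metabolism 1 was lower and 0 were higher (median log2 fold change −0.01). Slc6a9, the glycine transporter GlyT1, fell from 33.5 ± 6.15 to 23.1 ± 4.72 TPM (SD, n = 5 each; limma adjusted p = 0.0496). That call was lost without control library 3, 4 or 5 or miR-130a library 13, 14, 15 or 17. It was also lost with median-ratio scaling, quantile normalization, rescaling without mitochondrially encoded genes, eBayes without a trend and no filter (limma adjusted p up to 0.120 over all alternatives).

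Of 16 tested genes of ion, water and volume control, 2 were lower and 0 higher (median −0.12). Mlc1, an astrocyte membrane protein needed for volume regulation, fell from 164 ± 20.1 to 113 ± 12.7 TPM (SD, n = 5 each; limma adjusted p = 0.00792). Dag1, dystroglycan, which anchors Aqp4 at endfeet through the dystrophin complex, fell from 50.3 ± 5.73 to 36.9 ± 3.57 TPM (limma adjusted p = 0.0183; 0.0527 without control library 7, and 0.00145 to 0.0643 over the 21 alternatives). With median-ratio scaling neither passed.

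Of 10 tested connexins, pannexins and partners 2 were lower and 0 higher (median −0.34). Gja4, the vessel wall connexin, fell from 4.80 ± 0.467 to 3.03 ± 0.636 TPM and Panx1, a large-pore channel subunit, from 25.0 ± 7.19 to 13.4 ± 5.36 TPM (SD, n = 5 each; limma adjusted p = 0.0214 and 0.0361). The call of Gja4 was lost without control library 4 or 7 or miR-130a library 13 or 14, and that of Panx1 without control library 3, 4, 5 or 7 or miR-130a library 14, 15 or 18. Both were also lost with quantile normalization, which left 0 lower, and without a filter, Gja4 without control libraries 7 and 9, and Panx1 with median-ratio scaling (limma adjusted p up to 0.0801 and 0.102 over all alternatives).

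Of 13 tested genes of folate and one-carbon metabolism, the pathway of Aldh1l1, 3 were lower and 0 higher (median −0.19). Mthfd2, a mitochondrial folate enzyme, fell from 8.52 ± 0.900 to 5.05 ± 1.10 TPM. Shmt1, the cytosolic serine hydroxymethyltransferase, fell from 2.13 ± 0.599 to 0.786 ± 0.268 TPM, and its mitochondrial counterpart Shmt2 from 16.4 ± 2.29 to 12.004 ± 1.27 TPM (SD, n = 5 each). Limma adjusted p-values of these 3 were 0.00905, 0.0145 and 0.0302. Shmt1 was near the floor, at 0.58 to 1.24 TPM in miR-130a libraries. It passed the filter of 1 TPM only through the control group and was not tested with a minimum of 5 TPM. The Shmt2 call was lost without control library 4 or 5 or miR-130a library 13, 14 or 15. It was also lost with median-ratio scaling, quantile normalization, rescaling without mitochondrially encoded genes and no filter (limma adjusted p up to 0.198 over all alternatives).

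Glial transcription factors, the class of Sox9, went in both directions: 2 of 22 were higher and 1 lower (median −0.06). Hopx, a homeodomain protein of astrocytes and radial glia, rose from 48.6 ± 7.53 to 82.9 ± 9.83 TPM, and every miR-130a library was above every control (SD, n = 5 each; limma adjusted p = 0.0029). Hes5, a Notch effector, rose from 15.9 ± 4.15 to 25.3 ± 3.40 TPM (limma adjusted p = 0.0234), a call lost without control library 5 or miR-130a library 13, 14 or 15, or without a filter (limma adjusted p up to 0.0631). Hey2, another Notch target, fell from 3.56 ± 0.722 to 2.19 ± 0.364 TPM (limma adjusted p = 0.0411), but leaving out any 1 of the 10 libraries ended the call, as did median-ratio scaling, quantile normalization, rescaling without mitochondrially encoded genes, no filter and leaving out control libraries 7 and 9 (limma adjusted p up to 0.155).

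Of 39 tested further astrocyte genes 5 were lower, 1 was higher and 33 did not pass (median −0.21). These counts lie near the shares over all tested genes, 11.3% lower and 2.19% higher. Clu, the secreted chaperone clusterin, fell from 1317 ± 128 to 854 ± 99.0 TPM, and Slc14a1, a urea transporter, from 11.8 ± 2.97 to 6.34 ± 0.936 TPM (SD, n = 5 each; limma adjusted p = 0.00424 and 0.0088). Without control libraries 7 and 9, 8 were lower and 0 higher, and with median-ratio scaling 2 were lower. Leaving out control libraries 7 and 9 also gave 4 lower genes in the transmitter list, 3 in the ion and water list and 3 among the transcription factors. Lower calls over all genes moved the same way. They went from 1767 of 15680 to 2401 of 15511 without control libraries 7 and 9, and to 1192 of 15680 with median-ratio scaling.

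Reactive astrocyte genes stood at another scale in the same libraries. Of 15 tested, 14 were lower and 0 higher, with a median log2 fold change of −1.23 beside −0.27 for the homeostatic genes. Some of the lower genes were near the floor. Timp1, which averaged 0.918 TPM under miR-130a against 3.97 TPM in controls, met the 1 TPM filter only through the controls. Lcn2, Emp1 and Osmr averaged 1.20, 1.28 and 1.39 TPM under miR-130a. With a minimum of 5 TPM, which these genes do not reach, 8 of the list were lower. Vim, an intermediate filament, had a log2 fold change of −1.85 and Osmr, the receptor for oncostatin M, of −1.23 (limma adjusted p = 0.00154 and 0.00208). Without control libraries 7 and 9, 11 were lower. Some of these genes, C3 and Cd44 among them, are also expressed by microglia and other myeloid cells, whose markers were lower as well, and the difference between the lists was not tested.

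**Figure D5:**
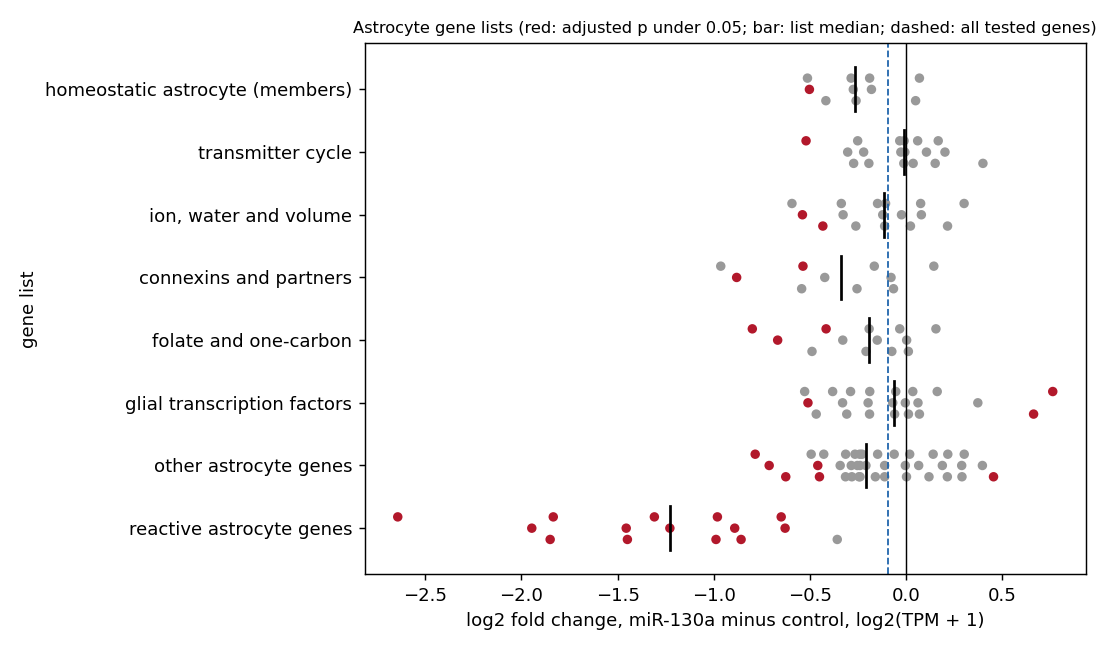
Log2 fold changes (horizontal axis, miR-130a minus control on the log2(TPM + 1) scale) of tested genes in the homeostatic set and 7 lists of related genes; red points passed an adjusted p of 0.05, bars are list medians and the dashed line is the median of all tested genes, −0.09. Medians of the first 7 rows lie between −0.34 and −0.01, while the reactive list has its median at −1.23.

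The genes whose profile over the 10 libraries was most like the mean of the 10 homeostatic genes were Cxcl12, Igfbp5, Olfml1, Tns3 and Synpo2, with Pearson correlations from 0.911 to 0.951 and Spearman correlations from 0.830 to 0.997. These are descriptions over points that share groups and libraries. Cxcl12, a chemokine, had means of 51.7 ± 5.07 TPM in the control group and 40.3 ± 4.08 TPM in the miR-130a group, and Igfbp5, an insulin-like growth factor binding protein, of 56.3 ± 12.99 and 39.2 ± 8.45 TPM (SD, n = 5 each). Of the 5, Cxcl12 alone passed (limma adjusted p = 0.0347), and it missed the threshold without control library 4 or 7 or miR-130a library 13, 14, 15 or 17, without control libraries 7 and 9, with median-ratio scaling, quantile normalization or rescaling without mitochondrially encoded genes, and without a filter (limma adjusted p up to 0.173). The mean profile itself ranged from −0.06 in library 3 to 0.32 in library 9 among controls and from −0.24 in library 13 to 0.11 in library 18 among miR-130a libraries (mean deviation on the log2 scale), so the groups overlapped.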

How the data were processed

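The authors deposited a matrix of TPM for each gene in 10 libraries; its 2 group mean columns were left aside. The build GRCm39 and the tools HISAT2, RSEM, fastp and DESeq2 are named per the submitters' processing notes, and their versions and roles are not given in the sources used here. Per the labels' protocols, the kit kept strand and selected poly(A) RNA, with 6.5 as the lowest integrity number accepted. TPM keeps no depth, so the reads behind a value are unknown and no count model or counting interval was used. The gene of the overexpressed microRNA, Mir130a, was listed at 0 in all 10 libraries.

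Columns were matched to libraries by sample titles. Values were analysed as log2(TPM + 1), which understates changes of weak genes. Genes with a mean of at least 1 TPM were fitted together with limma 3.58.1 (lmFit, then eBayes with its trend option; R 4.3.3, with release 1.17.8 of data.table). The test was 2-sided between 5 control and 5 miR-130a libraries, p-values were adjusted by Benjamini-Hochberg over all genes in the fit, and the threshold was 0.05. The fit was tested on simulated data. Ratios were compared by exact permutation over 252 splits. Python 3.11.15, numpy 2.4.6, pandas 2.3.3 and scipy 1.17.1 were used. Ranks, percentiles and intervals (95%, limma) describe the same fit.

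The 10 genes, the lists and the pairs were chosen with earlier results of these data known. Named were the 10 genes, of each list the 2 genes of lowest p and up to 5 past the threshold, and the 5 genes of most similar profile (Gm, Rik and clone names left out); some genes this rule selects, and 1 ratio, are not reported here. Alternatives were another pseudocount (0.1), other filters (none, or 5 TPM), 4 scalings, 3 variance settings and leaving out libraries.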

Additional observations from a re-analysis of the deposited data

Results flagged for a closer look

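In a group of 5 libraries, a value was marked when its gap to the nearest library exceeded 0.71 of the group's range (Dixon's 95% value), which chance does in about 1 in 20 groups; 26 groups were examined and 2 marked. Gjb6 in control library 9, at 138.92 TPM, was apart from the other controls by 0.895 of their range. For the same library the log2 ratio of Gja1 to Gjb6, −0.38, was apart by 0.911.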

How the results depend on the processing

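No paired analysis was possible because the groups share no library numbers. Over 21 alternatives, 0 homeostatic genes were higher each time. The number lower, 1 as reported, was 0 without a filter or with median-ratio scaling, 2 with a minimum of 5 TPM or rescaled to protein-coding genes (Atp1b2 and Sox9), 4 with library weights (Aldh1l1 and Slc1a3 in addition), and 0 to 2 on leaving out 1 library. Calls over all genes, 2110, were 1228 without control library 7, 3413 without control library 9 and 2767 without both. They were 1313 and 1278 without miR-130a library 13 and 14, and 1302 without a filter. With library weights they grew as well, from 1767 lower and 343 higher to 3144 and 696. Median-ratio scaling, which set the median of all genes at 0.01, gave 1192 and 862, and quantile normalization, at 0.05, gave 1046 and 1071; the median of the 10 genes relative to all genes was then −0.16 and −0.23. The lists moved too: lower genes ranged from 0 to 4 in the transmitter list, 0 to 5 in the ion and water list, 0 to 4 among connexins and partners, 2 to 3 in the folate list, 0 to 5 among transcription factors (1 to 3 higher), 2 to 10 among further astrocyte genes (0 to 3 higher) and 8 to 14 in the reactive list. Signs turned for Gjb6 (0.045 with library weights, 0.16 without control libraries 7 and 9, and −0.38 to 0.16 on leaving out 1 library, with 0.16 without control library 9), for Slc1a2 (−0.038 without control libraries 7 and 9, and −0.0087 to 0.13 on leaving out 1 library, the lowest without miR-130a library 18) and for Glul (−0.00044 without control libraries 7 and 9), and 0 of these differences had passed. The within-library ratio of Gja1 to Gjb6 turned to −0.036 with quantile normalization and −0.24 without control libraries 7 and 9, ranging from −0.26 to 0.21 on leaving out 1 library. Negative values came without control library 9 (−0.26) and miR-130a library 13 (−0.053), 14 (−0.14) or 17 (−0.075). The ratio of Glul to Slc1a2 turned to 0.023 with quantile normalization and 0.038 without control libraries 7 and 9, ranging from −0.094 to 0.024 on leaving out 1 library. Positive values came without control library 7 (0.0066) and miR-130a library 14 (0.016), 15 (0.0046) or 18 (0.024). The ratio of Slc1a2 to Slc1a3 kept its direction in all 16 alternatives run for ratios and did not pass in any (exact permutation, adjusted p from 0.0635 to 0.286). The cause of these turns was not tested. Depth is unknown, and 5 libraries per group limit precision.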
